A study of Mus musculus with 4 samples.

Results

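Cd48-positive multipotent progenitors low in Hlf were selected from droplet single-cell RNA-sequencing of bone marrow (BM) and spleen by the counts of 7 genes in each barcode. A barcode was a member if it held at least 1000 genes, at most 10% mitochondrial UMIs, at least 1 unique molecular identifier (UMI, a tag that counts single mRNA molecules) each of Kit, Ly6a, and Cd48, at least 2 UMIs of Cd34, and at most 1 UMI each of Hlf, Flt3, and Elane. Of 16261 barcodes that passed the limits on genes and mitochondrial UMIs, 204 met these conditions, and they are called gated cells here. The 4 libraries were control BM (CBM), BM of tumor-bearing mice (TBM), control spleen (CS), and spleen of tumor-bearing mice (TS). The mice were female C57BL/6J of 8 to 16 weeks without a transgene, and the tumor was a transplant of PyMT-B6 cells, a line grown out of MMTV-PyMT breast tumors, with harvest after 21 days according to the methods. Each group was 1 library, and the number of mice behind it was not given in the sources used here. Tissue was digested with enzymes, depleted of lineage-positive cells, sorted, and pooled at equal ratios from 5 announced populations for which 6 gates are listed, so that shares of barcodes describe the sorted mixture rather than the tissue.

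Multipotent progenitors arise from hematopoietic stem cells and feed the erythroid, megakaryocytic, myeloid, and lymphoid lineages. In the mouse they lack mature lineage markers and carry c-Kit and Sca-1 (the product of Ly6a), and they gain the surface protein CD48 as they lose the stem cell program, of which the transcription factor Hlf is a marker. Flt3 marks the progenitors that lean toward lymphoid fates, and Elane, which encodes neutrophil elastase, marks commitment to granulocytes. Under inflammation and with some tumors, these cells also settle and divide in the spleen.

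The rule set the levels of its 7 genes, so those are a description. Cd48 had a median of 2 and 3.5 UMIs per gated cell in CBM and TBM and of 3 and 4 in CS and TS, with a maximum of 5, 19, 10, and 19. Median Cd34 counts were 4, 7, 6, and 5 UMIs in the same order, and median Ly6a counts were 3, 1, 1, and 2, close to the limit of 1. At the upper limits, 5 of 10 and 17 of 32 gated cells in CBM and TBM, and 3 of 11 and 37 of 151 in CS and TS, held the 1 permitted UMI of Hlf, while 8, 21, 3, and 37 cells that met every other condition lay just outside with 2 UMIs. For Elane, 5, 9, 2, and 31 gated cells held 1 UMI, and 1, 8, 0, and 1 cells lay just outside with 2.

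Genes outside the rule bore on the label as follows. Cd27, a receptor carried by multipotent progenitors, had a UMI in 90.0% and 87.5% of the gated cells of CBM and TBM and in 100% and 82.8% of those of CS and TS, against at most 10.5% of the erythroid cells of any library. Erythroid cells, which should lack Cd27, were erythroid-marked barcodes without a UMI of Ly6a and Cd34, and their median depth was 12841 to 55554 UMIs against 13318.5 to 28191 in gated cells. Slamf1, which encodes the stem cell protein CD150, had a UMI in 10.0%, 9.38%, 9.09%, and 6.62% of gated cells, against 5.93%, 1.90%, 13.6%, and 6.50% of the erythroid cells of the same libraries. After thinning to 3000 UMIs per cell these were 0, 3.12%, 0, and 3.31% of gated cells against 1.72%, 1.27%, 1.05%, and 0.5% of erythroid cells, and the interval of TS (1.08% to 7.56%) alone left out the erythroid share. Summed over the gated cells of a library, mature markers stayed low, given as counts per 1000000 UMIs (CPM) of these cells. Such sums can hide single cells. The 6 macrophage markers summed to 0 CPM in CBM, TBM, and CS and to 1.57 CPM in TS, and the 8 neutrophil granule markers to 7.24, 105, 0, and 16.5 CPM. The 7 markers of mature T and NK cells summed to 0, 1.85, 3.29, and 11.8 CPM and the 5 dendritic cell markers to 50.7, 20.3, 42.7, and 52.1 CPM. The 6 B cell markers summed to 217 CPM in CBM against 38.8, 16.4, and 29.8 CPM elsewhere. In CBM, 1 cell held 22 of their 30 UMIs, with 7 of the 8 of Cd79a. Hemoglobin and other erythroid markers summed to 195 and 360 CPM in CBM and TBM and to 309 and 341 CPM in CS and TS. Free RNA, taken from the barcodes of up to 100 UMIs, held 9640, 11595, 7702, and 2817 CPM of them. Erythroid priming genes reached 6751 CPM in 1 gated cell of TS (median 679 CPM), while the erythroid cells of TS stood at 8414 CPM. Other gated cells of TS also lay far above the median, among them cells at 5859, 5017, and 4254 CPM. Megakaryocyte priming genes reached 6739 CPM in 1 gated cell of TBM (median 660 CPM). For such cells the label is uncertain.

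The gated cells held a median of 13318.5 and 15766.5 UMIs in CBM and TBM and of 28191 and 14725 in CS and TS, and a median of 3716.5, 4139, 5681, and 4092 genes. Summed over cells this came to 138198 and 541572 UMIs in the marrows (CBM, TBM) and 304316 and 2550483 in the spleens (CS, TS), so that CBM and CS rest on 10 and 11 cells and their levels are the least precise. No barcode was shared between gated cells of different libraries. With 1 library per group there was no replicate and no test between groups. The 95% intervals given here cover counting error only, cells of 1 library are not replicates, and differences between mice, sorts, or library preparations cannot be told apart from those between groups.

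The share of gated cells was highest in TS. They were 10 of 3497 barcodes in CBM, or 0.286% (exact binomial interval 0.137% to 0.525%), 32 of 4340 in TBM, or 0.737% (0.505% to 1.04%), 11 of 3236 in CS, or 0.340% (0.170% to 0.607%), and 151 of 5188 in TS, or 2.91% (2.47% to 3.40%). The interval of TS lay apart from the other 3, while those of CBM and CS overlapped almost wholly. TS held 74.0% of all gated cells.

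At the first step of the rule TS was not the highest library, since it lay below both marrows and above CS. Kit, Ly6a, and Cd34 alone were met by 365 and 564 barcodes in CBM and TBM (at least 10.4% of barcodes) and by 120 and 418 in CS and TS (3.71% and 8.06%), and the gated cells were 2.74%, 5.67%, 9.17%, and 36.1% of these. Hlf reached 2 UMIs or more in 79.5% and 67.2% of these cells in CBM and TBM and in 56.7% and 35.4% in CS and TS. Elane reached 2 UMIs in 31.5%, 35.3%, 24.2%, and 15.3% of them, and the free RNA of the same libraries held 1746, 1605, 486, and 326 CPM of Elane. The limit on Elane alone removed 14, 46, 17, and 40 cells, and that on Hlf alone 61, 92, 34, and 94. The part of free Elane RNA in the order of the libraries was not tested. After each barcode was thinned to 5000 UMIs, the rule left 9 and 20 cells in CBM and TBM (0.314% and 0.557%), but 2 in CS (0.0682%) and 46 in TS (0.924%). TS was highest here too, but its interval (0.678% to 1.23%) overlapped that of TBM (0.340% to 0.859%). With 0 UMIs of Hlf, Flt3, and Elane it left 2, 7, 2, and 61 cells, and TS was again highest.

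**Figure D1:**
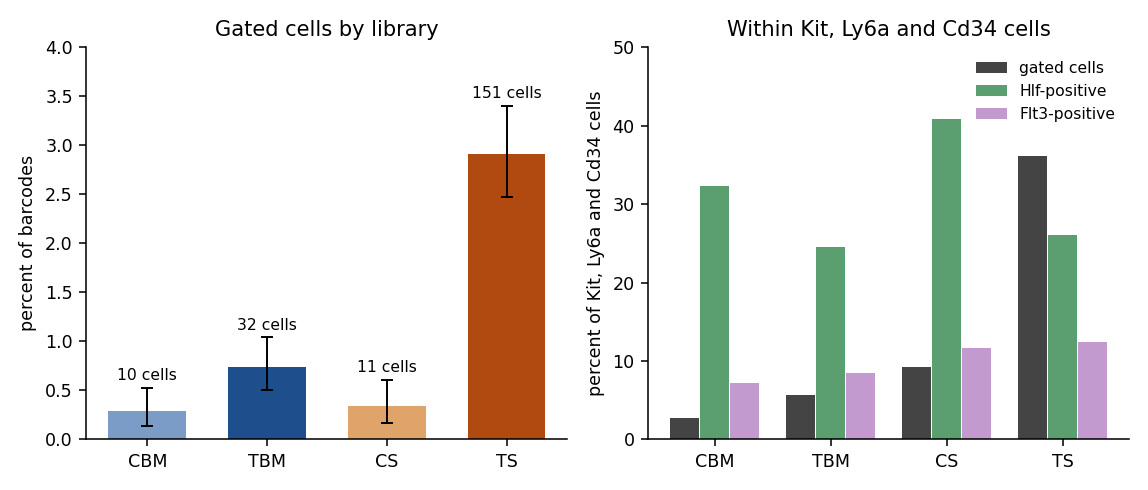
Left, gated cells as a percent of barcodes with at least 1000 genes and at most 10% mitochondrial UMIs in each library, with exact binomial 95% intervals as error bars. Right, gated, Hlf-positive, and Flt3-positive cells as a percent of Kit, Ly6a, and Cd34 cells, with no error bars. The gated share is 2.91% in TS, and within the Kit, Ly6a, and Cd34 cells it is 36.1% in TS against 9.17% or less elsewhere.

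A subset of the gated cells in spleen carried T cell receptor transcripts, which goes against the label for these cells. Trbc1 (chr6:41538218-41539881, GRCm38) and Trbc2 (chr6:41546730-41548352) are the near-identical constant segments of the T cell receptor beta chain. They summed to at most 1 UMI in most gated cells and to 5 or more in the rest, and a limit of 2 UMIs, chosen after these values were seen, divided them. Trbc-positive cells were 0 of 10 gated cells in CBM, 0 of 32 in TBM, 5 of 11 in CS (45.5%, interval 16.7% to 76.6%), and 28 of 151 in TS (18.5%, 12.7% to 25.7%). The counts of 0 allow shares of up to 30.0% in CBM and 9.38% in TBM when 3 counts are taken as the limit, and of up to 30.8% and 10.9% by the exact binomial interval. They held 29 to 59 UMIs of the 2 genes in CS and 5 to 72 in TS, with medians of 38 and 23.5. None of the 118, 138, 49, and 109 Hlf-positive cells of CBM, TBM, CS, and TS was Trbc-positive. Among Flt3-positive cells, 0 of 26, 0 of 48, 4 of 14, and 7 of 52 were. Trbc-positive gated cells were deeper than the others, with median totals of 23095.5 against 13635 UMIs in TS and 35016 against 22353.5 in CS, and the part of doublets in them was not tested.

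Genes known from early T cell development, chosen after their values were seen, went with Trbc1 in these cells. In TS, Tcf7 stood at 125 CPM in Trbc-positive and 0 in the other gated cells, and Bcl11b at 104 and 0.532 CPM. Both encode transcription factors of T lineage commitment. Il2ra, which encodes the interleukin-2 receptor alpha chain CD25, stood at 377 and 0 CPM, and Ly6d, a marker of lymphoid-primed progenitors, at 555 and 1.60 CPM. Il7r, the interleukin-7 receptor, was at 65.6 and 1.06 CPM, Lck, a kinase of T cell receptor signaling, at 96.9 and 7.45 CPM, and Dntt, which adds bases at receptor gene joints, at 79.0 and 11.7 CPM. The gamma chain segments Tcrg-C1 and Tcrg-C2, also near-identical copies, reached 316 and 373 CPM against 3.19 and 0.532 CPM. Of the markers of mature T cells, Cd3e, Trac, Cd4, and Cd8a were near the floor in sum. Single cells could differ, since 1 gated cell of TS held 10 of the 30 UMIs of the 7 mature T and NK markers. The highest sum of these markers in a gated cell of TS was 959 CPM. Cd3e stood at 11.9 CPM from 3 cells, Trac at 7.45 CPM, and Cd4 and Cd8a had 0 UMIs in the 28 cells.

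Several stem cell factors and Mpo were lower in the same TS cells, while some other myeloid genes were higher. Gata2, a transcription factor of stem and early progenitor cells, stood at 14.9 CPM against 95.2 in the other gated cells of TS, Meis1 at 26.8 against 115 CPM, and Lmo2 at 37.3 against 309 CPM. Mpo, which encodes myeloperoxidase, stood at 22.4 against 178 CPM. Plac8, a gene of lymphoid and myeloid progenitors, was higher, at 3120 against 1300 CPM, as were Tyrobp, a signaling adaptor of myeloid cells, at 198 against 130 CPM and Ncf1, a subunit of the phagocyte oxidase, at 71.6 against 14.4 CPM. In CS, the 5 Trbc-positive cells held 319 CPM of Tcf7, 627 of Ly6d, 253 of Dntt, and 235 of Il7r, and the 6 others held none of these 4 genes. Because these cells were absent from the gated cells of BM and made up different shares of CS and TS, values without them are given beside the main results below.

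**Figure D2:**
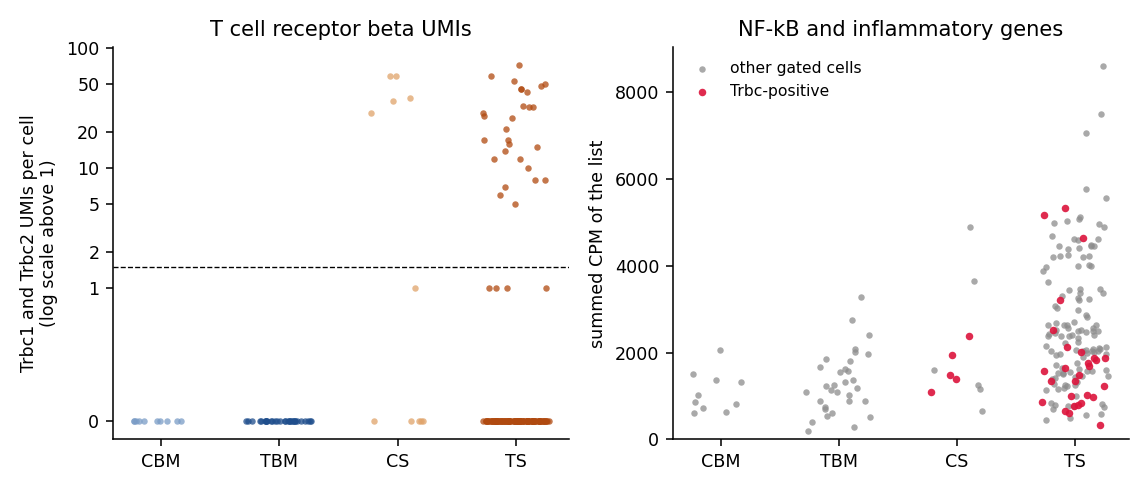
Left, UMIs of Trbc1 and Trbc2 together in each gated cell, on an axis that is logarithmic above 1, with the limit of 2 UMIs as a dashed line. Right, the summed CPM of the 24 inflammatory genes in each gated cell, with Trbc-positive cells in red. Each point is 1 cell, spread sideways; 5 CS and 28 TS cells lie at 5 UMIs or more, and the sums in TS run from 335 to 8615 CPM.

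Some inflammatory genes, among them Tnf and Nfkbia, were higher in the gated cells of both spleens than in those of both marrows, and Cxcl2 was high in TS alone. NF-κB is a transcription factor that stimuli such as TNFα and IL-1 release from its inhibitor, and it switches on chemokines, cytokines, and its own inhibitors. The upstream regions of 2 of its known targets are shown because both genes were higher in TS than in TBM. They are the 250 bases before the start site from the RefSeq promoter table (GRCm38.p6), 5′ to 3′ in the sense of the gene, and the capitals mark matches on either strand to the NF-κB pattern GGG, any 3 bases, and TTCC, in Cxcl2 with 3 matches that begin between 97 and 78 bases before the start, of which 2 overlap, and in Nfkbia with 1 that begins 29 bases before it. The start sites are those of RefSeq, and the start of Cxcl2 in the annotation that gives the gene positions below lies upstream, inside the window shown.
Cxcl2, chr5:90903649-90903898, plus strand: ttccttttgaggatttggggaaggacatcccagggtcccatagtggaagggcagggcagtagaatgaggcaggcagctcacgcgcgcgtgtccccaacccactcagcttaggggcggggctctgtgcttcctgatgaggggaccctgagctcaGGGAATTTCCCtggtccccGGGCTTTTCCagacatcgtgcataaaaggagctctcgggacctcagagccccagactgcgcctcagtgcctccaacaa
Nfkbia, chr12:55492648-55492897, minus strand: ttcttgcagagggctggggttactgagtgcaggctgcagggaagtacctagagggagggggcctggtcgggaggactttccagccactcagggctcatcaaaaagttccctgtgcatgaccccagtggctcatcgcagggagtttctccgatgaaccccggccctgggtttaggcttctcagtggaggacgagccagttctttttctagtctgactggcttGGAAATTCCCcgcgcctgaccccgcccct
Of the 24 genes of the NF-κB and inflammatory list, 19 had a promoter in the table and 9 of these genes held a match in at least 1 promoter, against 1434 of 27025 genes (5.31%) and 1527 of 32851 single promoters (4.65%). The list was made of known NF-κB targets, so nothing is read from its count. Tnf held none in this window. A match is a run of letters and shows no binding.

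Cxcl2 (chr5:90903871-90905938) encodes a chemokine that attracts neutrophils. It stood at 0 and 22.2 CPM in the gated cells of CBM and TBM, at 26.3 CPM in CS, and at 253 CPM in TS, where the Poisson interval ran from 234 to 274 CPM. By level, TS was high and the other 3 were low. UMIs were found in 4 of 32 cells in TBM, 5 of 11 in CS, and 70 of 151 in TS, so these unthinned shares were alike in CS and TS. After thinning to 3000 UMIs per cell, 32.5% of TS cells held a Cxcl2 UMI (25.1% to 40.5%), against 3.12% in TBM, 9.09% of the 11 cells in CS, and 0 of 10 in CBM. In the erythroid cells of TS it was 1.00%. Free RNA held 85.1 CPM of Cxcl2 in TS. Within TS, 11 cells with at least 20 UMIs each held 285 of the 646 UMIs, and the 123 Trbc-negative cells stood at 325 CPM against 53.7 CPM in the 28 Trbc-positive cells.

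Nfkbia (chr12:55489410-55492647), which encodes the inhibitor IκBα, stood at 94.1 and 157 CPM in CBM and TBM and at 276 and 412 CPM in CS and TS, so that both spleens lay above both marrows. It had a UMI after thinning in 20%, 34.4%, 54.5%, and 65.6% of gated cells, and in 17.2%, 13.4%, 47.6%, and 42.5% of erythroid cells, so the erythroid shares were also higher in spleen. The erythroid cells of the 2 tissues were not alike, however. Their hemoglobin and other erythroid markers summed to 183717 and 173362 CPM in CBM and TBM and to 36313 and 18846 CPM in CS and TS. The part of this in their Nfkbia shares was not tested. Tnf (chr17:35199381-35202007), which encodes TNFα, stood at 0 and 9.23 CPM in CBM and TBM and at 69.0 and 56.9 CPM in CS and TS. CS and TS were alike within their intervals (42.7 to 106 and 48.0 to 66.9 CPM), and erythroid cells with a Tnf UMI after thinning were at most 0.637% in any library. Nfkbiz, which encodes an NF-κB cofactor, was at 72.4, 81.2, 23.0, and 133 CPM, lowest in CS.

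Summed over the 24 genes, the inflammatory list reached 1056 and 1307 CPM in CBM and TBM and 1834 and 2225 CPM in CS and TS. The order was the same in Hlf-positive cells, at 1019, 1373, 1994, and 2261 CPM, and in Flt3-positive cells, at 1107, 1585, 1958, and 2781 CPM. Among single TS gated cells the sum ran from 335 to 8615 CPM with a median of 2140. Il1r1, the receptor for IL-1, was at 21.7, 24, 26.3, and 32.2 CPM in gated cells, and at 57.8 and 39.4 CPM in the Trbc-negative cells of CS and TS. In CBM and CS these levels rest on few UMIs, so no order of the libraries is read from them.

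**Figure D3:**
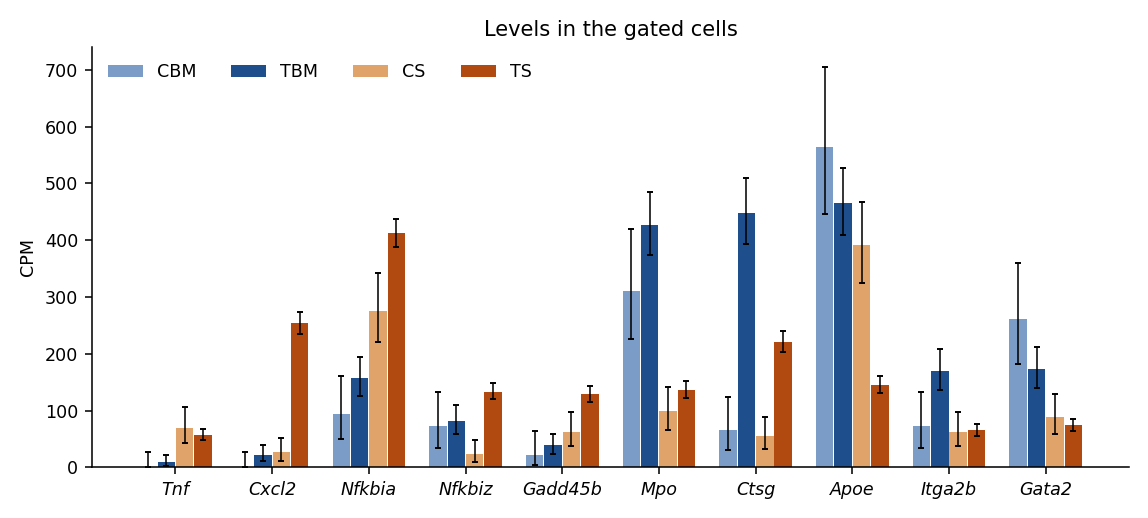
Levels in CPM (linear axis from 0) of 10 genes in the gated cells, 1 bar per library, with exact Poisson 95% intervals as error bars. Cxcl2 stands at 253 CPM in TS against 26.3 CPM or less elsewhere, and Apoe is lowest in TS at 145 CPM.

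TS was compared with TBM for tissue within tumor-bearing mice. This is the most precise comparison, with 151 and 32 cells. Ratios between libraries are log2, with an exact conditional interval, and a gene is counted when it differed at least 2-fold among genes with a mean of at least 20 CPM, after the 7 genes of the rule and the mitochondrial genes were left out. Of 6081 genes, 138 (2.27%) were at least 2-fold higher and 107 (1.76%) at least 2-fold lower in TS, and the median ratio over all of them was 0.03. Those whose interval left out 0 were 117 (1.92%) and 102 (1.68%). Without Trbc-positive cells, 124 (2.03%) of 6114 were higher and 105 (1.72%) lower.

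Of the inflammatory genes, 5 of 16 were higher in TS and 0 lower, with a median of 0.70, or 0.87 without Trbc-positive cells. The study reported Tnf, Cxcl2, Nfkbia, and Nfkbiz as higher in progenitors of TS than of both marrows in these same libraries. The list holds these genes, so its counts and medians, here and in the comparisons below, are a description. Tnf, under 20 CPM in both marrows, met the limit on the mean level through the spleens. Cxcl2 differed by 3.51 (2.70 to 4.47), Tnf by 2.62 (1.37 to 4.27), Ptgs2, which encodes the inducible cyclooxygenase, by 1.76 (0.89 to 2.79), and Nfkbia by 1.39 (1.07 to 1.73). Nfkb1 and Sod2 differed by 0.18 and -0.02, with intervals on both sides of 0. Of the immediate-early genes, 3 of 18 were higher and 1 lower, with a median of 0.18. Gadd45b, induced by stress, stood at 129 CPM in TS and 38.8 in TBM, a ratio of 1.73 (1.10 to 2.45), and Egr1, an immediate-early transcription factor, at 805 and 316 CPM, a ratio of 1.35 (1.12 to 1.58). The 1 lower was Klf6, a zinc finger transcription factor, at 34.1 against 79.4 CPM (-1.22), and Fos, at 956 and 1293 CPM, did not reach the 2-fold limit. Of the interferon-stimulated genes 3 of 8 were higher and 0 lower, with a median of 0.91, among them Isg15 at 42.7 against 20.3 CPM and Xaf1 at 23.5 against 3.69 CPM.

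Some myeloid and megakaryocytic genes were at least 2-fold lower in TS. Of the granulocyte and monocyte priming genes, 6 of 15 were lower and 1 higher, with a median of -0.78, or -0.41 without Trbc-positive cells. Mpo stood at 137 CPM in TS and 427 in TBM, a ratio of -1.64 (-1.88 to -1.39), Prtn3, which encodes proteinase 3, at 451 and 940 CPM, and Ctsg, which encodes cathepsin G, at 221 and 449 CPM. Their free RNA differed in the same direction, with 545 CPM of Mpo in TS and 2872 in TBM. Without Trbc-positive cells the ratios were -1.26 for Mpo and -0.80, under 2-fold, for Ctsg, and with ambient RNA subtracted at 10%, Ctsg turned to 0.07. Irf8, a factor of monocyte and dendritic lineages, was the 1 gene at least 2-fold higher, at 49.0 against 20.3 CPM, but 2 of the 151 TS cells held 60 of its 125 UMIs, and without them TS stood at 26.2 CPM. The megakaryocyte list had 3 of 6 genes lower and 0 higher, with a median of -1.10, or -0.98 without Trbc-positive cells. Among them were Itga2b, the integrin CD41, at 65.5 against 170 CPM (-1.38, -1.75 to -0.99) and Plek, a platelet signaling protein, at 68.2 against 199 CPM (-1.55). With the gate on thinned barcodes, 46 TS and 20 TBM cells, the ratio of Itga2b was 0.19 (-0.71 to 1.15). Without Trbc-positive cells the ratios of Itga2b and Plek were -1.18 and -1.29. Pf4, platelet factor 4, had a ratio of -6.11, but 94 of its 103 UMIs in TBM came from 1 cell.

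Stem cell transcription factors were lower in TS in 5 of 16 cases and higher in none, with a median of -0.48, or -0.19 without the Trbc-positive cells. Mecom stood at 17.6 CPM in TS and 44.3 in TBM (-1.33), Meis1 at 91.7 and 227 CPM (-1.31), and Gata2 at 74.1 and 174 CPM (-1.23). Runx1 and Erg, of the same list, stood at 228 and 223 CPM and at 89.8 and 103 CPM. Apoe, expressed in early progenitors with erythroid and megakaryocytic potential, was lower, at 145 against 465 CPM (-1.68). Without the Trbc-positive cells the ratios shrank to -0.98 for Meis1, -0.87 for Gata2, and -1.27 for Apoe. With the thinned gate, Apoe was higher in TS, by 1.46 (0.69 to 2.32), and the ratio of Gata2 was 0.51 (-0.16 to 1.22).

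Of the lymphoid priming genes, 5 of 10 were higher in TS and 0 lower, with a median of 0.75. Without the Trbc-positive cells the median was 0.14, over the 8 genes then tested. Genes are admitted by their mean over the 4 libraries, so Trbc-positive cells can bring in genes of this list. The 5 genes were Il7r, Lck, Ltb, Notch1, and Ighm, with Lck at 31.0 against 3.69 CPM. Outside this list, Ly6d, Trbc1, and Tcf7 had 0 UMIs in TBM and were at least 26.5-fold, 26.3-fold, and 5.95-fold higher in TS, taking 3 counts as the floor of TBM. Hes1, a Notch target, stood at 87.8 CPM in TS and 3.69 in TBM, a ratio of 4.57 (2.70 to 7.63), and at 4.81 without Trbc-positive cells. Free RNA held 72.1 CPM of Hes1 in TS and 5.29 in TBM. After thinning, 29.1% of TS gated cells held a Hes1 UMI (22.0% to 37.1%), against 8.00% of TS erythroid cells, and the part of free RNA in the ratio was not tested. Car1, an erythroid carbonic anhydrase, had a ratio of 5.0, but 6 of the 151 TS cells held 472 of its 603 UMIs, and free RNA held 1960 CPM of it.

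Genes of the cell cycle differed little. In S phase, 1 of 18 genes was higher and 0 lower with a median of -0.01, and among genes of G2 and mitosis 0 of 17 passed the 2-fold limit, with a median of 0.38. Mki67, a marker of cycling cells, stood at 332 CPM in TS and 220 in TBM.

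TS was compared with CS for the effect of the tumor within spleen, with 151 against 11 cells. Of 6081 genes, 264 (4.34%) were at least 2-fold higher and 182 (2.99%) lower in TS, and 150 (2.47%) and 154 (2.53%) had an interval that left out 0. Without Trbc-positive cells, 6 CS cells remained and these became 513 (8.39%) and 456 (7.46%) of 6113. Cxcl2 was higher in TS, by 3.27 (2.28 to 4.49) and by 3.17 without Trbc-positive cells, and Nfkbiz by 2.53 (1.48 to 3.86). The inflammatory list as a whole had 2 of 16 genes higher and 2 lower, with a median of 0.12, or 0.51 without Trbc-positive cells. Nfkbia differed by 0.58 (0.26 to 0.92) with all gated cells, and without the Trbc-positive its interval ran from 0.67 to 1.79. The 2 lower were the chemokine genes Ccl3, at 11.4 CPM in TS and 128 in CS, and Ccl4, at 82.3 and 220 CPM, and the Trbc-negative cells of CS held 275 and 462 CPM of them against 6.03 and 18.1 CPM in the Trbc-positive. With the thinned gate, which left 2 CS cells, the ratio of Ccl4 was 0.84 (-0.75 to 3.15).

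Lymphoid priming genes were lower in TS than in CS in 7 of 10 cases with a median of -1.17. Without the Trbc-positive cells the median turned to 0.29, over the 8 genes then tested. Dntt stood at 29.4 CPM in TS and 138 in CS (-2.23), and Notch1, the receptor whose signal starts T cell fate, at 46.7 and 174 CPM (-1.90), a ratio that turned to 0.65 without Trbc-positive cells. Tcf7, outside the list, stood at 32.9 and 174 CPM (-2.40). Genes of G2 and mitosis were higher in TS in 7 of 17 cases and lower in 0, with a median of 0.91, or 0.38 without Trbc-positive cells. Those of S phase went the other way, with 0 of 18 higher and 2 lower. Their median was -0.47, or -0.56 without Trbc-positive cells. Ube2c, which drives exit from mitosis, stood at 105 CPM in TS and 9.86 in CS, where 2 of 11 cells held it. Its ratio was 3.42, or 2.33 (0.45 to 5.39) without Trbc-positive cells. Granulocyte and monocyte genes were higher in 5 of 15 cases and lower in 0, with Ctsg at 221 against 55.9 CPM (1.98, 1.29 to 2.77). Ifitm1, an interferon-inducible membrane protein of stem cells, stood at 1339 against 312 CPM (2.10, 1.81 to 2.41) and its ratio was 1.26 without Trbc-positive cells. Stem cell transcription factors were lower in 3 of 16 cases, with Mecom at 17.6 against 55.9 CPM.

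CS was compared with CBM for tissue in control mice, on 11 and 10 cells. Of 6059 genes, 846 (14.0%) were at least 2-fold higher and 584 (9.64%) lower in CS, but only 286 (4.72%) and 234 (3.86%) had an interval that left out 0. Without Trbc-positive cells, 813 (14.0%) and 830 (14.3%) of 5804 were counted. Of the genes of S phase, 11 of 18 were higher in CS and 0 lower, with a median of 1.58, or 1.66 without Trbc-positive cells. Mcm6, a subunit of the replicative helicase, stood at 332 CPM in CS and 57.9 in CBM (2.52, 1.49 to 3.77), and Hist1h1b, a linker histone made in S phase, at 467 and 28.9 CPM (4.01, 2.62 to 5.91). With the thinned gate, which left 2 CS and 9 CBM cells, the S phase median was -0.45 and Hist1h1b had 0 UMIs in CS, so that its ratio was at most -2.54, taking 3 counts as the floor. Inflammatory genes were higher in 8 of 16 cases and lower in 1, with a median of 0.77, or 0.73 without Trbc-positive cells. Nfkbia differed by 1.55 (0.70 to 2.52), or by 1.16 (0.17 to 2.22) without them, and Tnf, with 0 UMIs in CBM, was at least 3.18-fold higher. Stem cell transcription factors were lower in 7 of 16 cases and higher in 1. Lmo2 stood at 164 CPM in CS and 593 in CBM (-1.85, -2.39 to -1.33), and the Trbc-negative cells of CS held 347 CPM of it against 12.1 CPM in the Trbc-positive. Without Trbc-positive cells the median of this list moved from -0.67 to -0.21. Among the genes named for this pair, Cpa3, which encodes the mast cell carboxypeptidase A3, was at 154 CPM in CS and 7.24 in CBM, the latter from 1 UMI (4.42, 1.87 to 9.75). The Trbc-positive cells of CS held 253 CPM of Cpa3 and the others 36.1 CPM, and without the former the ratio was 2.32 with an interval that includes 0 (-0.84 to 7.88). Wfdc17, a myeloid secreted protein, was at 6.57 against 326 CPM (-5.63, -8.72 to -3.69), and Dennd5b, a regulator of vesicle traffic, at 32.9 against 456 CPM (-3.79). Without Trbc-positive cells these 2 ratios were -4.49 and -3.98.

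TBM was compared with CBM for the effect of the tumor within marrow, on 32 and 10 cells. Of 6071 genes, 630 (10.4%) were at least 2-fold higher and 441 (7.26%) lower in TBM, and 146 (2.40%) and 202 (3.33%) had an interval that left out 0. Leaving out Trbc-positive cells removed no cell here, but 642 (10.5%) and 444 (7.27%) of 6111 genes were then counted, since the mean level that admits a gene is taken over the 4 libraries. Genes of the cell cycle were higher in TBM, in 7 of 18 cases for S phase (median 0.81) and in 9 of 17 for G2 and mitosis (median 1.15), with 0 lower in both. Top2a, a topoisomerase of dividing cells, stood at 351 CPM in TBM and 137 in CBM (1.35, 0.67 to 2.12). Of the 112 UMIs of G2 and mitosis genes in CBM, 81 came from 1 of the 10 cells, and the median of that list was -0.96 with the thinned gate and -1.35 with 0 UMIs of Hlf, Flt3, and Elane. Megakaryocyte genes were higher in 4 of 6 cases, with Itga2b at 170 against 72.4 CPM (1.23, 0.29 to 2.34) and Cd9, a tetraspanin of platelets, at 111 against 43.4 CPM. Of the 572 UMIs of the megakaryocyte list in TBM, 183 came from 1 cell. Cpa3 was at 161 against 7.24 CPM, the latter from 1 UMI (4.47, 1.96 to 9.79), and 37 of its 87 UMIs in TBM came from 1 cell. Interferon-stimulated genes were lower in 5 of 8 cases and higher in 1, with a median of -1.5, among them Xaf1 at 3.69 CPM in TBM and 43.4 in CBM (-3.56, -6.90 to -1.07). Of the 100 UMIs of this list in CBM, 25 came from 1 cell. The highest cells of CBM stood at 2056 and 1789 CPM of the list, against a median of 630 CPM. The inflammatory list had 2 of 16 genes higher and 1 lower, with a median of -0.02. Lymphoid priming genes were lower in 4 of 8 cases. The B cell markers above were also higher in CBM, but 22 of their 30 UMIs there came from 1 cell. That cell also had the highest lymphoid priming sum of CBM, at 3039 CPM. Lst1, a leukocyte gene, was at 31.4 against 217 CPM (-2.79, -3.74 to -1.88). Ly6d had 0 UMIs in TBM, and its 6 UMIs in CBM came from 1 cell.

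**Figure D4:**
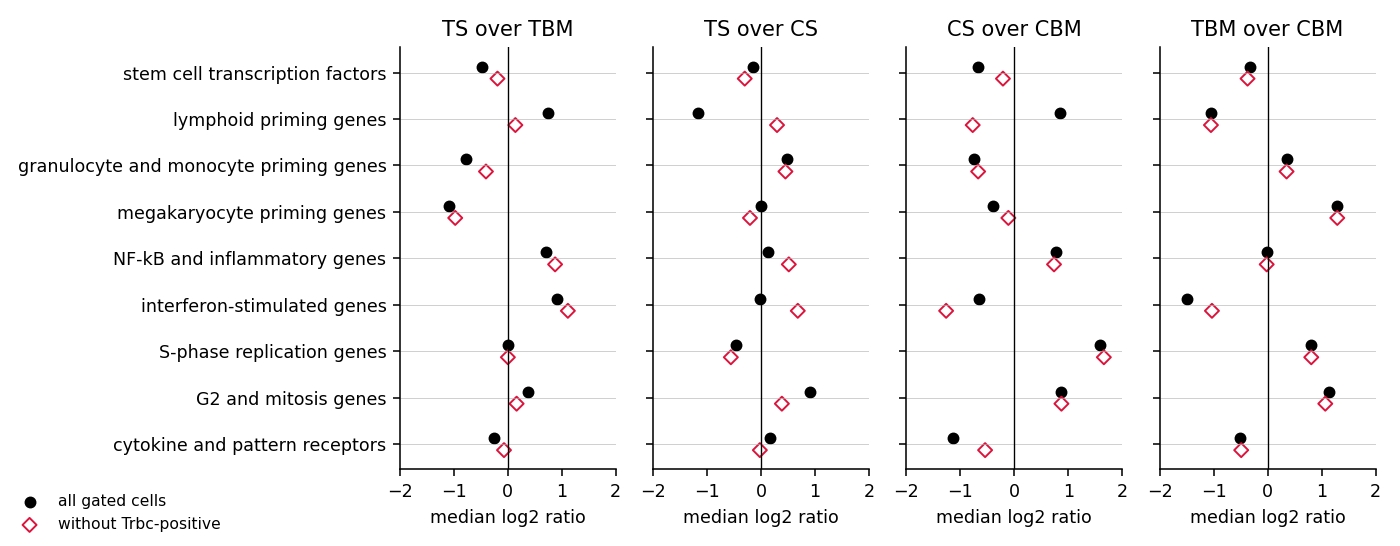
Median log2 ratio of each gene list in the gated cells, 1 panel per pair of libraries, with all gated cells (filled) and without Trbc-positive cells (open); 0 is equal. The median of lymphoid priming genes moves from -1.17 to 0.29 for TS over CS and from 0.85 to -0.77 for CS over CBM. These medians set 10 genes tested with all gated cells against 8 without Trbc-positive cells. The S phase median for CS over CBM is 1.58 and 1.66 (-0.45 with the thinned gate, not plotted).

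These comparisons share libraries, and levels of stem cell factors are given here for all 4. Gata2 stood at 260 and 174 CPM in the gated cells of CBM and TBM and at 88.7 and 74.1 CPM in those of CS and TS, but 22 of its 36 UMIs in CBM came from 1 cell, without which CBM stood at 116 CPM, below TBM. Meis1 stood at 268, 227, 112, and 91.7 CPM in the same order. The stem cell factors summed to 2960, 2334, 1962, and 1676 CPM in gated cells and to 2963, 2911, 2957, and 2171 CPM in Hlf-positive cells. In Flt3-positive cells the sums were 1640, 2205, 1595, and 1692 CPM, highest in TBM. The Trbc-negative gated cells of CS stood above all gated cells of CS, with 195 CPM of Gata2, 231 CPM of Meis1, and a sum of 2529 CPM for the stem cell factors, and those of TS summed to 1882 CPM. A separate list of 16 stem cell surface and quiescence genes had another order. Its sums over gated cells were 1925, 2700, 1222, and 2218 CPM for CBM, TBM, CS, and TS. Each tumor library thus lay above its control. Among Trbc-negative gated cells these genes reached 2088 (CS) and 2562 CPM (TS). Their median log2 ratio was negative all the same, at -0.48 for TBM over CBM and -0.17 for TS over CS. The part of Trbc-positive cells in the order of the libraries was not tested beyond these values.

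The gated cells were then tested against Hlf-positive cells of the same libraries, which met the same limits except that they held at least 2 UMIs of Hlf and could lack Cd48. UMIs were summed per library and population, and edgeR's quasi-likelihood test with library as a block was used, so that n was 4 libraries of different conditions. Of 9075 genes, 27 (0.298%) were higher and 23 (0.253%) lower in gated cells at a Benjamini-Hochberg adjusted p below 0.05. Without Trbc-positive cells, 10 (0.110%) and 12 (0.133%) of 9055 were called, and 14 of the 50 genes were called in both fits.

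Plac8 (chr5:100553725-100572245) was higher in gated cells in 4 of 4 libraries. It stood at 1462, 1544, 2300.2, and 1779 CPM in CBM, TBM, CS, and TS against 826, 901, 905, and 1067 CPM in Hlf-positive cells, and the groups did not overlap (log2 0.96, SE 0.10, edgeR adjusted p = 2.63e-05). Tyrobp, which encodes the signaling adaptor DAP12 of myeloid and natural killer cells, stood at 246, 162, 214, and 148 CPM against 101, 92.8, 101, and 79.3 CPM (1.03, SE 0.13, edgeR adjusted p = 0.000236). Ighm, the immunoglobulin mu heavy chain, which the naming rule left out, stood at 195, 18.5, 92.0, and 37.6 CPM against 19.4, 4.08, 9.16, and 10.5 CPM (2.74, SE 0.28, edgeR adjusted p = 2.63e-05). Of the 27 Ighm UMIs in CBM, 20 came from 1 cell. These 3 genes were called with each library left out in turn and without Trbc-positive cells, where their differences were 0.53, 0.82, and 2.07.

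Of the granulocyte and monocyte priming genes, 4 of 19 were higher and 0 lower. Besides Plac8 these were Irf8 (1.27, edgeR adjusted p = 0.0399), Cst7, which encodes cystatin F (0.87, edgeR adjusted p = 0.0392), and Ctsg (0.90, edgeR adjusted p = 0.0399). Ctsg was higher in TBM, CS, and TS but stood at 65.1 against 78.4 CPM in CBM. Irf8 (0.83) and Cst7 (0.74) were not called without Trbc-positive cells, while Ctsg was. Ccl9, a monocyte chemokine, was higher in 4 of 4 libraries (0.85, edgeR adjusted p = 0.0329, and 1.07 without Trbc-positive cells). Cpa3 differed by 1.71 (edgeR adjusted p = 0.0141) and was lower in CBM. Satb1, a chromatin organizer of lymphoid progenitors, Atp8b4, Crip1, Zbtb16, and Cxcr4, the receptor for the niche chemokine CXCL12, were higher in 4 of 4 libraries by 0.82 to 1.76 and were not called without Trbc-positive cells. The difference of Cxcr4 was -0.10 with the thinned gate. Of S phase genes 2 of 19, Rrm2 and Ung, were higher and 0 lower. Both were higher in 3 of 4 libraries, and neither was called without Trbc-positive cells (0.84 and 0.90).

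Among the genes lower in the gated cells were some known from stem cells and platelets. Mmrn1, which encodes multimerin of platelets and endothelium, stood at 14.5, 11.1, 3.29, and 3.92 CPM against 38.3, 40.3, 37.6, and 16.3 CPM in Hlf-positive cells (-2.0, SE 0.32, edgeR adjusted p = 0.00692). Ptgs1, the constitutive cyclooxygenase, fell by 1.66 on the log2 scale (edgeR adjusted p = 0.0113), Myct1 by 1.04 (edgeR adjusted p = 0.011), and Selp, or P-selectin, by 0.82 (edgeR adjusted p = 0.0378). Each was lower in 4 of 4 libraries, and Mmrn1, Ptgs1, and Myct1 were also called without Trbc-positive cells. Of the stem cell transcription factors 0 of 19 were called in either direction by edgeR, with a median of -0.37, and of the inflammatory genes 0 of 21, with a median of 0.06. Hba-a1, Hba-a2, and Hbb-bs, the hemoglobin genes, were also lower, Hba-a2 in 3 of 4 libraries. Hbb-bs differed by -2.98, at 1182 and 2368 CPM in the Hlf-positive cells of CBM and TBM against 72.4 and 124 CPM in gated cells, and at 62.1 and 49.0 against 46.0 and 20.4 CPM in CS and TS.

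The number of genes called depended on the libraries. Leaving out TBM left 6 higher and 0 lower of 9119 by edgeR, and leaving out TS 7 and 8 of 7907. Leaving out CS left 17 and 13 of 9728, and leaving out CBM 46 and 30 of 9116.

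**Figure D5:**
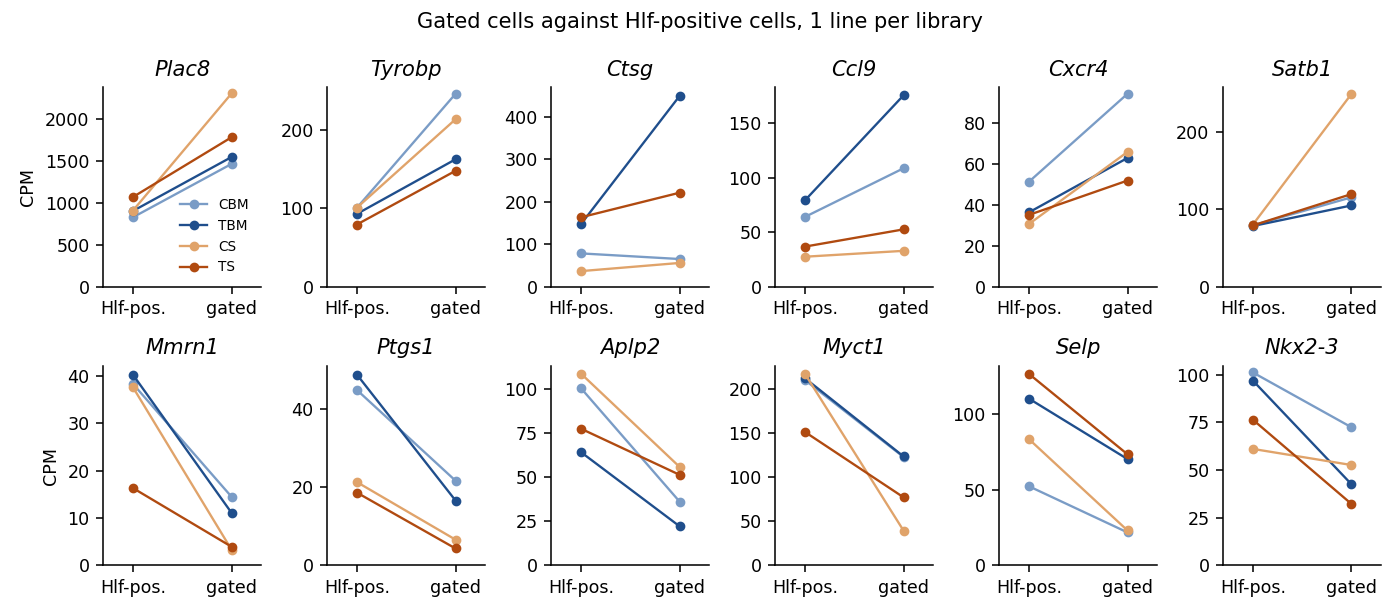
Levels in CPM (linear axes from 0, a scale for each gene) of 12 genes in Hlf-positive and in gated cells, with 1 line per library. Plac8 and Tyrobp are higher and Mmrn1 lower in gated cells in 4 of 4 libraries, and Ctsg is higher in 3 of 4.

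Against Flt3-positive cells, which held at least 2 UMIs of Flt3 and at most 1 of Hlf, 8 of 6477 genes (0.124%) were higher and 7 (0.108%) lower in gated cells. By edgeR 0 of 1858 genes were called with the thinned gate, where 79 had an unadjusted p under 0.05. Itga2b stood at 72.4, 170, 62.4, and 65.5 CPM in CBM, TBM, CS, and TS against 5.24, 38.1, 7.67, and 24.2 CPM (log2 2.08, SE 0.28, edgeR adjusted p = 0.0204), and Apoe at 564, 465, 391, and 145 against 107, 70.1, 153, and 69.5 CPM (1.82, SE 0.26, edgeR adjusted p = 0.0204). Slc18a2, the vesicular monoamine transporter of mast cells and platelets, and Gng11, a G protein subunit of platelets, were higher by 2.16 and 2.08, and Cpa3 by 2.83 (edgeR adjusted p = 0.0367). These 5 genes were higher in 4 of 4 libraries, and Cpa3 alone among them was not called without the Trbc-positive cells of both populations, where its difference was 2.90, about as large.

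Ccr2, the receptor that guides monocytes, was the lowest named gene, at 0, 3.69, 3.29, and 6.67 CPM against 19.2, 41.8, 58.8, and 43.3 CPM (-3.05, SE 0.36, edgeR adjusted p = 0.00879). Ncf1, a subunit of the phagocyte oxidase, fell by 1.45 (edgeR adjusted p = 0.0367). Lymphoid priming genes were lower in 0 of 10 cases by edgeR with all cells. Without Trbc-positive cells Dntt (-2.69), Notch1 (-1.40), and Satb1 (-1.0) were called lower, as was Irf8 (-2.70), and the calls were 9 (0.139%) higher and 11 (0.170%) lower of 6466. Of the 15 and 20 genes called, 12 were shared. With 1 library left out the counts by edgeR ran from 0 to 22 higher and from 1 to 23 lower, of 6076 to 7361 genes.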

How the data were processed

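Droplet 3′ single-cell libraries of CBM, TBM, CS, and TS, 1 per group, were used as deposited. The authors aligned and counted them with Cell Ranger 4.0 against mm10, per the submitters' processing notes, and the deposited matrices hold unfiltered UMI counts per gene and barcode. The ambient RNA correction, filter on genes, and normalization of the methods are not in these counts. The 4 libraries held 101811035 (CBM), 135207987 (TBM), 145301019 (CS), and 176094297 (TS) UMIs.

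Some genes, among them the marker that selected erythroid barcodes, are not reported here. Members and gene lists were chosen with earlier results of these data known. Cells were selected by counts alone, without clustering, and doublets were not removed. Counts of gated cells were summed per library and divided by their total to give CPM. Ratios between libraries took genes with a mean of at least 20 CPM, with 0 UMIs set to 3 counts. Intervals were exact Poisson for levels, conditional binomial for ratios, and Clopper-Pearson for shares, all at 95%. Summed counts of gated and Hlf-positive or Flt3-positive cells were tested with edgeR's quasi-likelihood test (TMM, filterByExpr, library as a block, Benjamini-Hochberg), with p measuring the spread over 4 libraries of different conditions. Shares of cells with a UMI were thinned to 3000 UMIs per cell, and no gated cell was left out. Positions follow GRCm38.

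Named genes were, for each ratio, taken from the 10 highest and 10 lowest with a mean of at least 50 CPM and an interval without 0, and for each edgeR comparison from the 12 largest in each direction that passed and had 1 direction in 4 libraries, besides genes of the lists. Mitochondrial, ribosomal, hemoglobin, immunoglobulin, sex-linked marker, predicted, and rule genes were left out. Genes described by Trbc status and Ighm, hemoglobin genes, and Fos were named after their values were seen or as list members. Trbc1 and Trbc2, Tcrg-C1 and Tcrg-C2, and Hba-a1 and Hba-a2 are near-identical copies whose reads may be split. Alternatives changed the gate, depth, filter, ambient RNA (10%), and tool. Tools were R 4.3.3, edgeR 4.0.16, limma 3.58.1, DESeq2 1.42.0, Python 3.11.15, numpy 2.4.6, scipy 1.17.1, pandas 2.3.3, and matplotlib 3.10.9, and the tests were tried on simulated data.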

Additional observations from a re-analysis of the deposited data

Results flagged for a closer look

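In the gated cells, 4 genes of 2961 examined were higher in TS than in CS and lower in TBM than in CBM, at least 2-fold and with intervals that left out 0. With 1 library per group the difference between spleen and marrow was not tested. Suco stood at 101, 48.0, 19.7, and 48.6 CPM in CBM, TBM, CS, and TS, with log2 ratios of 1.302 for TS over CS and -1.08 for TBM over CBM. Car1, an erythroid carbonic anhydrase, had ratios of 2.08 and -3.29, with all 10 UMIs of CBM in 1 cell. In TS, 6 of the 151 cells held 472 of its 603 UMIs. Wfdc17, a myeloid secreted protein, had ratios of 2.71 and -1.18, and its 2 UMIs in CS came from 1 cell. Mxd1, a transcription factor that opposes Myc, stood at 109, 46.2, 9.86, and 86.3 CPM, with ratios of 3.13 and -1.23 and UMIs in 3 cells of CS. Without Trbc-positive cells the ratios of TS over CS were 1.74 for Suco, 1.96 for Car1, and 1.99 for Wfdc17. Mxd1 then had 0 UMIs in CS, so its ratio was at least 2.25, taking 3 counts as the floor.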

How the results depend on the processing

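TS held the highest share of gated cells under each gate tried. With 0 UMIs of Hlf, Flt3, and Elane the shares were 0.0572% and 0.161% in CBM and TBM and 0.0618% and 1.18% in CS and TS, and on barcodes thinned to 5000 UMIs they were 0.0682% in CS and 0.924% in TS. CBM and CS rest on 10 and 11 cells, and the thinned gate left 9, 20, 2, and 46 cells in CBM, TBM, CS, and TS, so its ratios rest on few UMIs. No paired analysis was possible because each group is 1 library, so that the groups share fewer than 2 replicate numbers, and library was a block in each edgeR fit. The causes of the changes below were not tested.

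Genes at least 2-fold higher and lower depended on the gate and filter. The number of genes tested changed with them and is given after each pair. With 0 UMIs of the 3 genes they were 593 and 1297 of 6182 for TS over CS. For TS over TBM they were then 635 and 615 of 6181, and 861 of 4615 were lower for TBM over CBM. With Cd48 of at least 2 UMIs, 683 of 6086 were lower for TBM over CBM. With a minimum of 100 CPM they were 123 and 53 of 1490 for CS over CBM and 55 and 27 of 1489 for TBM over CBM. They were then 10 and 13 of 1490 for TS over CS and 8 and 12 of 1490 for TS over TBM. With the thinned gate they were 631 and 1206 of 6155 for TS over CS and 361 and 195 of 6157 for TS over TBM. With intervals that left out 0 they were 286 and 234 of 6059 for CS over CBM. For TBM over CBM they were then 146 and 202 of 6071, and 150 of 6081 were higher for TS over CS. With no minimum they were 997 and 1095 of 9183 for TBM over CBM. They were then 839 and 1779 of 11503 for TS over CS and 697 and 1168 of 11532 for TS over TBM. Without Trbc-positive cells they were 513 and 456 of 6113 for TS over CS.

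Against Hlf-positive cells, edgeR called 1 gene higher and 3 lower of 6079 with 0 UMIs and 86 and 76 of 4426 with the thinned gate. It called 119 and 101 of 16498 with no filter and 10 and 12 of 9055 without Trbc-positive cells. DESeq2 called 9 and 6 of 9075, of which 7213 were given no adjusted p. With 1 library left out the counts ran from 6 to 46 higher and from 0 to 30 lower, of 7907 to 9728 genes. Against Flt3-positive cells, edgeR called 2 and 4 of 3538 with 0 UMIs and 48 and 105 of 15536 with no filter. It called 5 of 6246 higher with Cd48 of at least 2 UMIs and 11 of 6466 lower without Trbc-positive cells. With the thinned gate it called 0 and 0 of 1858, where 79 genes had an unadjusted p under 0.05. With 1 library left out they ran from 0 to 22 and from 1 to 23, of 6076 to 7361 genes.

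Some values took 3 counts for a library at 0 UMIs. For Qdpr in CS over CBM (-0.37), Wfdc17 in TS over CS (-1.44), and Thoc3 in TBM over CBM (-0.35) with 0 UMIs of the 3 genes, Trbc2 in TS over TBM (-1.38) without Trbc-positive cells, which were chosen by it, and Vldlr in CS over CBM (1.01) with the thinned gate, the sign comes from that floor and is no change of direction. Tcf7 and Trbc1 for TS over CS with 0 UMIs are lower bounds (0.25 and 2.44), and Hist1h1b for CS over CBM with the thinned gate an upper bound (-2.54), and these changed sign. So did, with 0 UMIs, Wfdc17 for TS over TBM (0.13) and the median of G2 and mitosis genes for TBM over CBM (-1.35). With ambient RNA subtracted, Ctsg for TS over TBM turned to 0.072. With the thinned gate, Cd63 (-0.16) and H2afy (0.13) against Flt3-positive and Cxcr4 (-0.10) against Hlf-positive cells changed sign. So did Afap1l1 (-0.73), Apoe (2.63), Ccl4 (0.84), Hist1h2ae (0.97), Myl10 (0.72), and Notch1 (0.0199) for TS over CS, and Apoe (1.46), Gata2 (0.51), Hilpda (-0.54), and Itga2b (0.19) for TS over TBM. Cdt1 (-0.99) and the S phase median (-0.45) did so for CS over CBM, and Kif15 (-1.23), Knl1 (-1.33), and the G2 and mitosis median (-0.96) for TBM over CBM. Without Trbc-positive cells, Notch1 (0.65) and the lymphoid median (0.29, on 8 genes against 10) for TS over CS changed sign. Over the alternatives run, 542 values of single gene ratios lay within the 95% interval given for the ratio, 97 lay outside it, and 24, with the 5 whose sign comes from the floor, had the opposite sign to a difference of at least 2-fold. Of the genes tested by edgeR, 280 values kept their call, 159 kept their direction without the call, and 3 changed sign.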
